A study of Mus musculus with 16 samples.

Results

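Transcripts of 9 genes of the pituitary gland were followed in 16 libraries of mouse hypothalamus. They are the hormone genes *Prl*, *Gh*, *Cga*, *Tshb* and *Lhb*, the transcription factor and cofactor genes *Pou1f1*, *Pitx1* and *Eya3*, and the melatonin receptor gene *Mtnr1a*. The 9 genes were named by symbol, out of 55401 measured, and were selected on the measured levels of *Prl* and *Gh*, which had been seen to vary with genotype and time in these libraries. The values of *Prl* and *Gh* are therefore a description with no test, and the other genes were chosen with earlier results in view. The study sequenced hypothalamus RNA to compare mice without the proton-gated ion channel ASIC1a with wild-type mice shortly after the lights came on and shortly after they went off. ASIC1a-/- mice and WT mice, all male C57BL/6 animals aged 3 months and bred from heterozygotes, were killed at ZT1 or ZT13, where ZT counts the hours since the lights came on. There were 4 libraries in each of the 4 groups, ASIC1a-/- ZT1, WT ZT1, ASIC1a-/- ZT13 and WT ZT13, and each library came from a different mouse. The deletion was constitutive and not restricted to the hypothalamus. P-values measure the spread between these mice.

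The pituitary hangs below the hypothalamus on a stalk. Its anterior lobe, the pars distalis, holds lactotropes that make prolactin, somatotropes that make growth hormone, gonadotropes that make luteinizing and follicle-stimulating hormone, and thyrotropes that make thyrotropin. The last 3 hormones share an alpha subunit encoded by *Cga*, and each has a beta subunit of its own. The pars tuberalis is a thin sheet of pituitary tissue that wraps the stalk and lies against the base of the hypothalamus, where a dissection can keep it or lose it. Its cells carry the melatonin receptor MT1 and make *Cga* and *Tshb* transcripts, and in several mammals and birds its thyrotropin acts on tanycytes of the hypothalamus, where it raises *Dio2*, the enzyme that activates thyroid hormone. The hormone genes are best known from the pituitary and not from hypothalamic neurons. The study states, however, that prolactin is also made locally in several nuclei of the hypothalamus. Which tissue gave the transcripts followed here was not tested.

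The promoters below are shown because *Prl* varied together with *Gh*, while the libraries high in *Cga* and *Tshb* were only partly the same. They are RefSeq windows on GRCm38.p6, from 250 bases before to 50 bases after the start of the gene, written on the strand of the gene. Such windows were matched for 7 of the 9 genes, with none for *Gh* or *Pitx1*, so *Prl* and *Gh* cannot be compared here. Capitals mark matches to TATNCAT on either strand, the core of sites bound by POU1F1. This factor drives prolactin and growth hormone genes and is also needed by thyrotropes. A part of these motifs in the levels was not tested. *Prl* lies on the plus strand (chr13:27057320-27057619), *Cga* on the plus strand (chr4:34893529-34893828) and *Tshb* on the minus strand (chr3:102782665-102782964).
Prl: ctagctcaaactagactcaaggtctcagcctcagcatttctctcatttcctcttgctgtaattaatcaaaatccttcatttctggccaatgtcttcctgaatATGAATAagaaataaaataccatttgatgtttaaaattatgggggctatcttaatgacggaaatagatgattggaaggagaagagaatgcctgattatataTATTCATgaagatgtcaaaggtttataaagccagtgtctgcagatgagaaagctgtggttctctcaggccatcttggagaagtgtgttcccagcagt
Cga: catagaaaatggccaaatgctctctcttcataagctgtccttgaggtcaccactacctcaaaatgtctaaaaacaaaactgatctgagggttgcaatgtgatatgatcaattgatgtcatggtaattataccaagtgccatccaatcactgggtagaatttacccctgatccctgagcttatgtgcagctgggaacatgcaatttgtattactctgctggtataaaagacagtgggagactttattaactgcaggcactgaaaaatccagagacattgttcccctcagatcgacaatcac
Tshb: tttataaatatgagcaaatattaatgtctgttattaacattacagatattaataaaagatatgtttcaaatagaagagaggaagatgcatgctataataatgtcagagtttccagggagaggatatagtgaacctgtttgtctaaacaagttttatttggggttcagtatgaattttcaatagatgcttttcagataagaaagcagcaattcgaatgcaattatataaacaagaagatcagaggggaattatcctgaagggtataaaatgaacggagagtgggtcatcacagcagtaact
The *Prl* window held 2 matches, which began 148 and 47 bases before the start, and the *Cga* and *Tshb* windows held none. At least 1 match occurred in 8.84% of 32851 mouse promoter windows. The D-box TTATGNAA of clock-output factors (3.38% of windows) was in none of the 7 genes' windows, and the E-box CACGTG (7.15% of windows) was in that of *Mtnr1a* alone, 207 bases before the start. Of the 2 windows listed for *Pou1f1*, 1 held 2 TATNCAT matches, 57 bases before and 12 bases after the start, and the other held 0.

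Library totals were 34888522 to 42326259 expected counts (median 35750448). CPM are a library's counts scaled to a fixed library total. *Asic1*, which encodes ASIC1a, averaged 67.4 ± 2.41 CPM in the ASIC1a-/- group at ZT1, against 104.0 ± 1.98 CPM in its WT group (SD, n = 4). At ZT13 it averaged 71.0 ± 0.807 CPM without the channel, against 99.2 ± 2.2 CPM with it. In TPM the direction was the opposite, with 76.9 ± 4.89 in ASIC1a-/- and 65.6 ± 2.93 in WT mice at ZT1, and 82.7 ± 1.21 in ASIC1a-/- and 66.0 ± 4.51 in WT mice at ZT13. Reads of the gene thus remained in ASIC1a-/- libraries, and these values per gene do not measure the deleted part alone. The 10 hypothalamus markers, among them *Avp*, *Oxt* and *Hcrt*, were all over the filter on low counts and summed to 1070 to 1510 CPM. Meningeal markers (9 of 9 measured, none at 0) summed to 390.0 CPM in ASIC1a-/- ZT1 replicate 4 and 193 CPM in ASIC1a-/- ZT13 replicate 2, against 46.3 to 110.0 CPM in the other libraries, so results were also computed without those 2 libraries and are given below where a call or a size changed. The 8 pars distalis markers summed to 0.33 to 36.8 CPM. Among them *Pou1f1* was at 0 in all ASIC1a-/- libraries and in all WT ZT1 libraries, while *Prl* and *Gh* had counts in every library. In bulk tissue, more cells of a kind and more RNA per cell cannot be told apart. By the study's methods, the hypothalamus was lifted from the removed brain with tweezers. For separate samples of pituitary tissue in the same study, the pars distalis was collected from the skull and the pars tuberalis was cut from a slice of hypothalamus. A step that freed these libraries' tissue of the pars tuberalis is not given in the sources used here.

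The levels of the 9 genes spanned a wide range. In TPM, the RSEM unit of transcripts scaled to a fixed total, which allow for gene length, the mean level over the 16 libraries was 17.6 ± 1.2 for *Eya3*, 14.2 ± 18.1 for *Gh*, 9.20 ± 10.5 for *Cga*, 3.32 ± 5.59 for *Prl* and 0.939 ± 1.14 for *Tshb* (SD, n = 16). It was 0.631 ± 0.189 TPM for *Mtnr1a*, 0.234 ± 0.279 for *Pitx1*, 0.0594 ± 0.165 for *Lhb* and 0.0125 ± 0.0355 for *Pou1f1*. The ranges over libraries overlapped for each pair of neighbours in this order. *Prl*, *Gh*, *Cga* and *Eya3* passed the filter of over 1 CPM in at least 1 library. *Cga* did so in 7 libraries, *Prl* in 5, *Gh* in 12 and *Eya3* in all 16, so a gene such as *Cga* entered the test through the libraries where it was high. *Tshb*, *Lhb*, *Pou1f1*, *Pitx1* and *Mtnr1a* stayed below it.

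**Figure D1:**
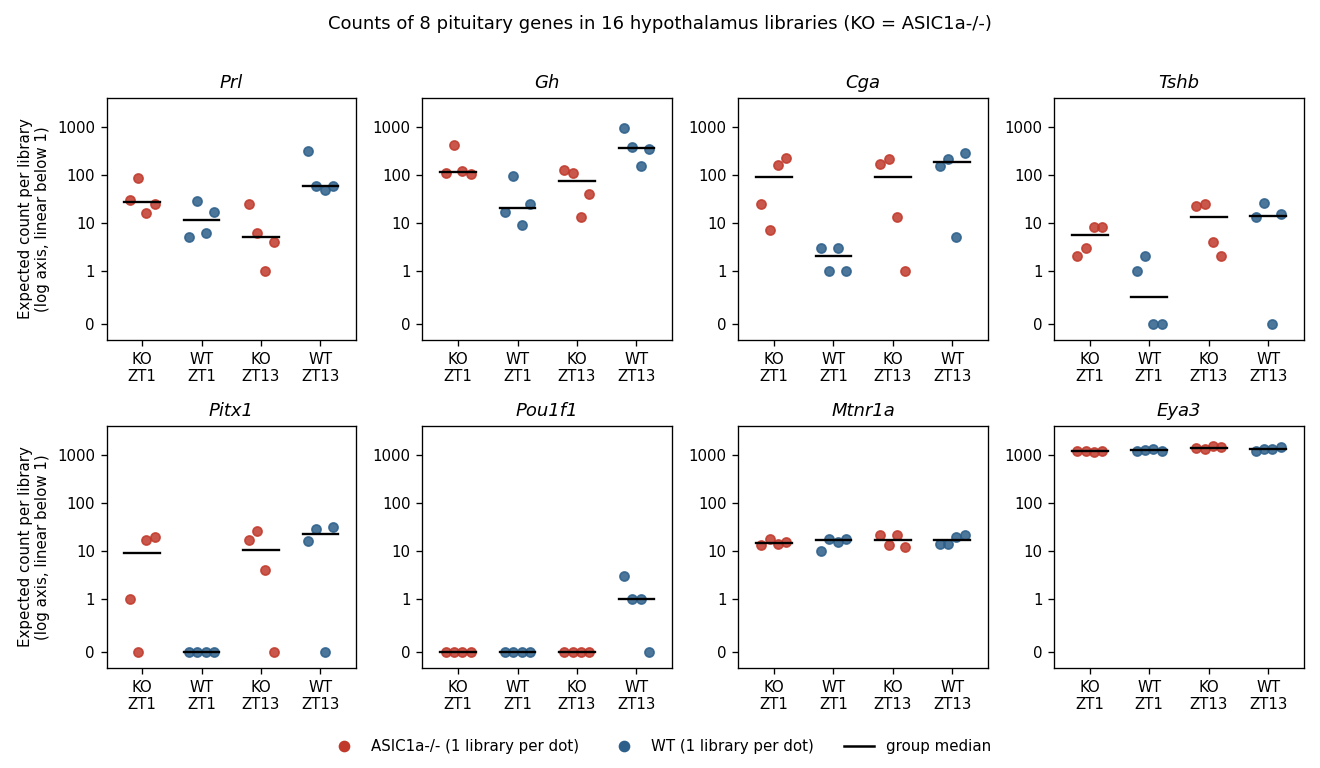
Expected count (vertical axis, logarithmic above 1 count and linear below) of 8 of the 9 genes in each library (dots), by genotype and time, with the group median (line). *Cga*, *Tshb* and *Pitx1* split into high and low libraries within ASIC1a-/- ZT1, ASIC1a-/- ZT13 and WT ZT13 and stayed low in all 4 WT ZT1 libraries, while *Mtnr1a* (10 to 21 counts) and *Eya3* (1168 to 1553 counts) were nearly level.

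*Prl* encodes prolactin, the lactotrope hormone (ENSMUSG00000021342, GRCm38 chromosome 13, 27057570 to 27065205). Its expected counts were 30, 85, 16 and 25 in ASIC1a-/- mice at ZT1 and 5, 28, 6 and 17 in WT mice at ZT1, replicates 1 to 4. At ZT13 they were 24, 6, 1 and 4 in ASIC1a-/- mice and 315, 58, 47 and 59 in WT mice. The genotypes overlapped at ZT1. At ZT13 no ASIC1a-/- library reached the lowest WT library, and WT replicate 1 stood far above the other 3. All counts were whole numbers, and of 25 measured genes of the placental prolactin family, which resemble *Prl* in sequence, only *Prl4a1* had a count (1 in all), so reads were not divided with these relatives. *Gm47888* overlaps *Prl* on the other strand, and whether the counting used strand is not given in the sources used here.

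*Gh* encodes growth hormone, the product of somatotropes (ENSMUSG00000020713, chromosome 11, 106300271 to 106301865). It had 110, 410, 119 and 106 counts in ASIC1a-/- mice and 17, 95, 9 and 24 counts in WT mice at ZT1. At ZT13 it had 124, 108, 13 and 40 counts in ASIC1a-/- mice and 935, 382, 152 and 351 counts in WT mice. The genotypes did not overlap at either time, with ASIC1a-/- libraries above WT libraries at ZT1 and below them at ZT13. In TPM, *Gh* was above *Prl* in all 16 libraries. WT ZT13 replicate 1 was the highest library for both genes. Summed midbrain dopamine markers (4 of 4 measured, none at 0) were 231 CPM in ASIC1a-/- ZT1 replicate 2, the highest ASIC1a-/- library for both hormones, and 74.2 CPM in WT ZT13 replicate 1. They were 129 CPM in WT ZT1 replicate 1, which had 5 *Prl* counts, and 12.5 to 213 CPM in the other 13 libraries; their part in the hormone levels was not tested.

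*Pou1f1* encodes the factor that lactotropes, somatotropes and thyrotropes of the pars distalis need (ENSMUSG00000004842, chromosome 16, 65520511 to 65535005). It had 3, 1, 1 and 0 counts in the WT ZT13 libraries and 0 in the other 12. The libraries with a count were the first 3 WT ZT13 replicates, where *Gh* was at 152 to 935 counts, but WT ZT13 replicate 4 had none beside 351 *Gh* counts. A count of 0 in a library allows up to 3 counts there, 0.0709 to 0.0860 CPM depending on the library (counting error only). This limit is for single libraries and does not apply to a group mean. All 5 counts fell in WT ZT13, where the mean was 0.0356 ± 0.0360 CPM (SD, n = 4). The exact permutation p was 0.143 (adjusted 0.476) both against ASIC1a-/- mice at ZT13 and against WT mice at ZT1. With 4 against 4 mice this test could hardly pass after adjustment, so it does not decide whether *Pou1f1* differed.

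*Cga*, the shared alpha subunit (ENSMUSG00000028298, chromosome 4, 34893779 to 34907370), followed another pattern. It had 25, 7, 156 and 225 counts in ASIC1a-/- mice and 3, 1, 3 and 1 counts in WT mice at ZT1. At ZT13 it had 170, 214, 13 and 1 counts in ASIC1a-/- mice and 150, 211, 5 and 280 counts in WT mice. The libraries were either high (150 to 280 counts, 7 libraries) or low (1 to 25 counts, 9 libraries), and high and low libraries occurred side by side in every group other than WT ZT1, where all 4 were low. The summed count was 413 in ASIC1a-/- and 8 in WT mice at ZT1, a ratio per total count of 51.0 (95% exact interval 25.7 to 119). It was 646 at ZT13 and 8 at ZT1 in WT mice, a ratio of 81.4 (41.0 to 189); these intervals cover counting error only and not the differences between mice. *Platr9* overlaps *Cga* on the other strand.

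*Tshb* encodes the beta subunit of thyrotropin (ENSMUSG00000027857, chromosome 3, 102775465 to 102782718). It had 2, 3, 8 and 8 counts in ASIC1a-/- mice and 1, 2, 0 and 0 counts in WT mice at ZT1. At ZT13 it had 22, 24, 4 and 2 counts in ASIC1a-/- mice and 13, 26, 0 and 15 counts in WT mice. Its high libraries were those of *Cga*. Beside *Cga* counts of 150 to 280 in the high libraries at ZT13, *Tshb* had 13 to 26 counts, and beside *Cga* counts of 156 and 225 in those at ZT1 it had 8 and 8. *Tspan2* overlaps *Tshb* on the other strand.

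*Pitx1* encodes a homeodomain factor of all anterior pituitary lineages (ENSMUSG00000021506, chromosome 13, 55825051 to 55836192). It had 1, 0, 17 and 19 counts in ASIC1a-/- mice and 0 in each of the 4 WT mice at ZT1. At ZT13 it had 17, 26, 4 and 0 counts in ASIC1a-/- mice and 16, 28, 0 and 31 counts in WT mice. It was at or near 0 wherever *Cga* was low. Against the floor of 3 counts per library in WT ZT1, its mean CPM was at least 3.06-fold higher in ASIC1a-/- mice at ZT1 and at least 6.28-fold higher in WT mice at ZT13. The bound at ZT1 rests on the 2 libraries with 17 and 19 counts, and without single libraries it was 1.98 to 4.08. *Gm28760* overlaps *Pitx1* on the same strand and *Gm47071* on the other.

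*Lhb* encodes the beta subunit of luteinizing hormone (ENSMUSG00000100916, chromosome 7, 45420820 to 45421897). Its expected count was 3.91 in ASIC1a-/- ZT1 replicate 4, 5.36 in WT ZT13 replicate 4 and 0 in the other 14 libraries. Those 2 libraries were also the highest in *Cga* and in *Fshb*. Neither value is a whole number, and *Ruvbl2* overlaps *Lhb* on the other strand, so the source of these reads is uncertain.

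The 7 libraries with the most *Cga* were the same 7 that ranked highest in *Pitx1*, *Tshb* and *Fshb*. *Pitx1* had 16 to 31 counts in them and 0 to 4 in the other 9, and *Tshb* had 8 to 26 and 0 to 4. *Fshb*, the beta subunit of follicle-stimulating hormone, had 14 to 56 counts in them and 0 to 5 elsewhere. The 7 highest libraries for *Gh* held 5 of these and those for *Prl* held 3. WT ZT13 replicate 3 had 47 *Prl* and 152 *Gh* counts beside 5 *Cga* and 0 *Pitx1* counts, and ASIC1a-/- ZT1 replicate 2 had 85 *Prl* and 410 *Gh* counts beside 7 *Cga* and 0 *Pitx1* counts. ASIC1a-/- ZT13 replicate 2 had 214 *Cga* counts beside 6 *Prl* counts. Libraries ordered in this way are not groups of the study, and no test was made between them. Both libraries high in meningeal markers were among the 7, while WT ZT13 replicate 4, the highest in *Cga*, had 51.1 CPM of those markers; their part in the *Cga* levels was not tested.

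**Figure D2:**
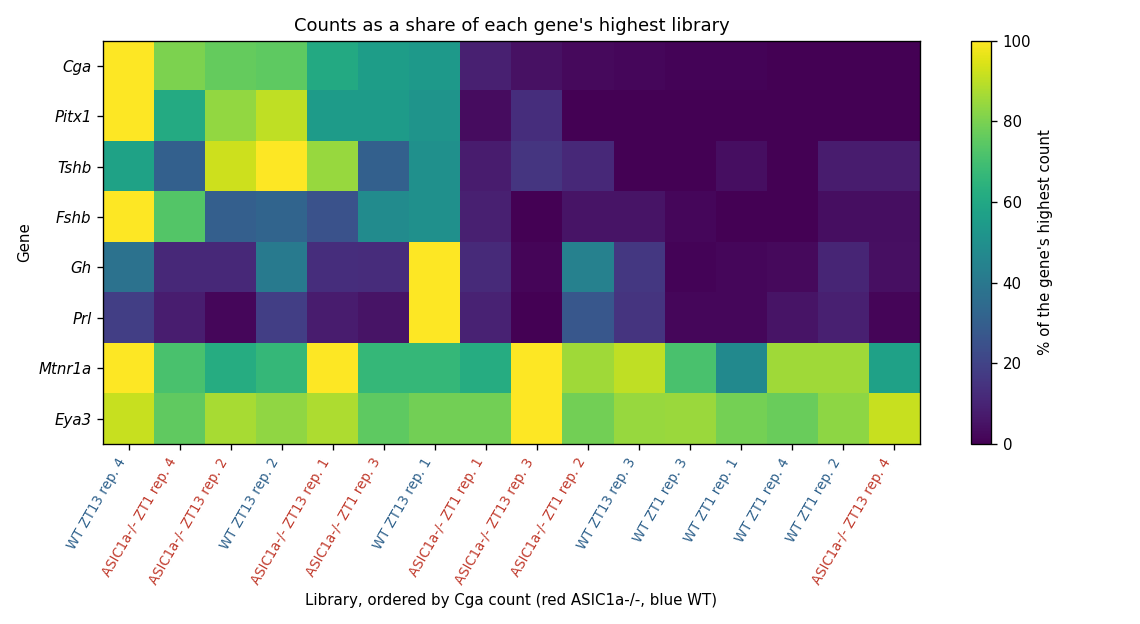
Count of 8 genes in each library as a percentage of the highest library for that gene (colour), with libraries from the most *Cga* (280 counts) on the left to the least (1 count) on the right; library names are red for ASIC1a-/- and blue for WT. The first 7 columns are bright for *Cga*, *Pitx1*, *Tshb* and *Fshb*, while *Gh* and *Prl* peak in WT ZT13 replicate 1, and *Mtnr1a* and *Eya3* show no such edge.

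*Eya3* and *Mtnr1a*, named as pars tuberalis markers, did not follow *Cga*. *Eya3*, which encodes a transcriptional cofactor and phosphatase and drives *Tshb* in the pars tuberalis of sheep (ENSMUSG00000028886, chromosome 4, 132638987 to 132724765), had 1221, 1222, 1168 and 1173 counts in ASIC1a-/- mice and 1227, 1288, 1320 and 1200 counts in WT mice at ZT1. At ZT13 it had 1361, 1349, 1553 and 1421 counts in ASIC1a-/- mice and 1220, 1293, 1312 and 1421 counts in WT mice. Its counts varied by 1.33 times between the lowest and the highest library, against 280 times for *Cga*, and it had 1200 to 1553 counts in the 9 libraries low in *Cga* and 1168 to 1421 in the 7 high ones. In these libraries *Eya3* did not follow *Cga*, *Tshb* and *Pitx1*.

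*Mtnr1a* encodes the melatonin receptor MT1 (ENSMUSG00000054764, chromosome 8, 45069137 to 45088506). It had 13, 18, 14 and 15 counts in ASIC1a-/- mice and 10, 18, 15 and 18 counts in WT mice at ZT1. At ZT13 it had 21, 13, 21 and 12 counts in ASIC1a-/- mice and 14, 14, 19 and 21 counts in WT mice. All 4 groups overlapped, and the libraries high and low in *Cga* spanned 13 to 21 and 10 to 21 counts. MT1 is also found in the suprachiasmatic nucleus of the hypothalamus, and these values do not show which cells held the transcripts.

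A gene was called where its adjusted p was under 0.05 in edgeR's quasi-likelihood test, which compares 4 mice with 4 against the spread within all groups. Between genotypes at ZT1, 0 of the 7 genes other than *Prl* and *Gh* were called, against 0.0127% of the 15808 genes tested. *Cga* was higher by 5.59 on the log2 scale (SE 1.66), but its adjusted p of 0.68 did not pass in edgeR. Of the 2 genes that edgeR tested here, *Cga* and *Eya3*, 1 had an unadjusted p under 0.05 (*Cga*, 0.00353), DESeq2 called 0, and for *Cga* DESeq2 gave an adjusted p of 0.0647. Without the 2 libraries high in meningeal markers its log2 fold change was 4.87 (adjusted p = 0.914). At ZT13, 0 of the 7 were called between genotypes by edgeR, against 0.101% of all genes tested, and 0 of the 2 it tested had an unadjusted p under 0.05. DESeq2 called 0 as well. *Cga* had a log2 fold change of -0.74 (SE 0.924, edgeR adjusted p = 1.0; -1.48 without the 2 libraries high in meningeal markers) and *Eya3* of 0.03 (SE 0.0407).

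With time of day, 1 of the 7 was called in each genotype, and of the 7 only *Cga* and *Eya3* were tested by edgeR. In WT mice, *Cga* rose at ZT13 relative to ZT1 by 6.25 on the log2 scale (SE 1.60, edgeR adjusted p = 0.0152), and 13.3% of all genes tested were called (7.52% higher). Its level was 4.55 ± 3.27 CPM at ZT13 and 0.0562 ± 0.0322 CPM at ZT1 (SD, n = 4). It was higher in 4 of 4 ZT13 mice, but in replicate 3 only by a few reads, with 5 counts against 1 to 3 at ZT1. The call was lost in limma on log2(TPM + 1) (3.23, adjusted p = 0.0911) and log2(TPM + 0.1) (4.91, adjusted p = 0.0613); the adjusted p over all alternatives was 0.000128 to 0.0911. In ASIC1a-/- mice *Cga* had a log2 fold change of -0.08 (SE 0.944, edgeR adjusted p = 0.968), with 2.75 ± 3.04 CPM at ZT13 and 2.88 ± 2.93 CPM at ZT1. The interaction of genotype and time for *Cga* was -6.33 (SE 1.97) with an edgeR adjusted p of 1.0 (unadjusted 0.00477), so a difference between the genotypes in the change with time was not shown. By edgeR, 0 of the 7 genes were called for the interaction, against 0.019% of all genes tested, with 1 unadjusted p under 0.05 (*Cga*), and by DESeq2 0 were called.

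In ASIC1a-/- mice *Eya3* rose at ZT13, relative to ZT1, by 0.18 on the log2 scale (SE 0.0409, edgeR adjusted p = 0.00929), where 11.3% of all genes tested were called (6.72% higher). Its level was 37.8 ± 1.25 CPM at ZT13 and 33.4 ± 0.911 CPM at ZT1 (SD, n = 4), and it was higher in 4 of 4 ZT13 mice. In limma on log2(TPM + 1) its adjusted p was 0.0551, on log2(TPM + 0.1) it was 0.0531, and without the 2 libraries high in meningeal markers, 1 at each time, edgeR gave 0.0514, so the call did not hold in these 3 cases. In WT mice it had a log2 fold change of 0.06 (SE 0.0409, edgeR adjusted p = 0.332), and the interaction of 0.11 (SE 0.0579) had an edgeR adjusted p of 1.0.

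**Figure D3:**
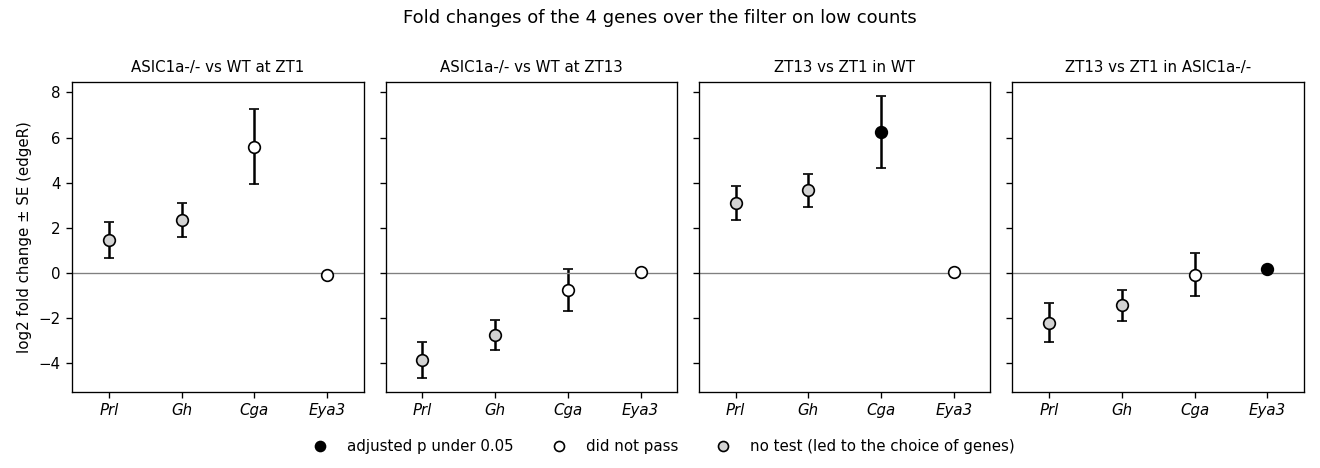
Log2 fold change with its standard error (edgeR, bars) of the 4 genes over the filter on low counts, in the comparisons of genotypes at each time and of times in each genotype. Filled points passed at an adjusted p under 0.05 (*Cga* in WT mice at 6.25 and *Eya3* in ASIC1a-/- mice at 0.18), open points did not, and grey points (*Prl*, *Gh*) carry no test.

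As a description, the fitted log2 fold change of ASIC1a-/- over WT was 1.46 (SE 0.80) for *Prl* and 2.35 (SE 0.745) for *Gh* at ZT1, and -3.84 (SE 0.801) for *Prl* and -2.74 (SE 0.665) for *Gh* at ZT13. At ZT1 the value for *Prl* was 0.74 without ASIC1a-/- replicate 2 and 2.04 without WT replicate 2, and for *Gh* it was 1.61 and 3.46 without the same libraries. At ZT13 the value for *Prl* was -5.08 without ASIC1a-/- replicate 1 and -2.70 without WT replicate 1, and for *Gh* it was -3.15 and -2.10 without the same libraries. The groups did not overlap for 2 of the 9 genes between genotypes at ZT1 (*Gh* and *Cga*, both higher in ASIC1a-/- mice) and for 2 at ZT13 (*Prl* and *Gh*, both lower in ASIC1a-/- mice). Among all genes over the filter, 2.92% did not overlap between genotypes at ZT1 (1.42% higher in ASIC1a-/- mice) and 2.58% at ZT13 (1.29% lower). Between times, 3 of the 9 did not overlap in WT mice (*Prl*, *Gh* and *Cga*, all higher at ZT13), against 18.3% of all genes over the filter (9.63% higher). For *Cga* the gap was a few reads in both comparisons. Its lowest count was 7 in ASIC1a-/- mice at ZT1 and 5 in WT mice at ZT13, and its highest in WT mice at ZT1 was 3. In ASIC1a-/- mice *Eya3* alone did not overlap, higher at ZT13, against 15.7% (8.83% higher). None of the 5 genes under the filter had groups without overlap, and of all genes under it with a count 1.56% had none between genotypes at ZT1, 1.52% between genotypes at ZT13, 1.89% between times in WT mice and 2.07% between times in ASIC1a-/- mice. *Prl* and *Gh* led to the choice of the genes, and all 4 comparisons share groups, so these counts are not separate evidence.

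The 5 genes under the filter were compared by an exact permutation test of mean CPM, two-sided, in which 4 against 4 mice cannot go below p = 0.0286. After adjustment over the 20 tests, an adjusted p under 0.05 would need at least 12 tests at that smallest p, so these tests could hardly pass and their outcome says nothing of stability or absence. The lowest adjusted p was 0.476. At ZT1 *Tshb* averaged 0.146 ± 0.0891 CPM in ASIC1a-/- mice, against 0.0210 ± 0.0269 CPM in WT mice (SD, n = 4, exact permutation p = 0.0571, adjusted 0.476). In WT mice it was at 0.382 ± 0.303 CPM at ZT13 and 0.0210 ± 0.0269 CPM at ZT1 (exact permutation p = 0.143, adjusted 0.476), since WT ZT13 replicate 3 had no count. For *Pitx1* the exact permutation p was 0.143 in both of these comparisons. With no filter on low counts, edgeR called *Tshb* (log2 fold change 3.97, SE 0.931, adjusted p = 0.00639) and *Pitx1* (adjusted p = 0.00363) in WT mice, both higher at ZT13, beside *Cga* (adjusted p = 0.000688). In that setting 1029 of all 30876 genes were called higher. *Tshb* and *Pitx1* were highest in the same 7 libraries as *Cga*, so their calls are not separate evidence. *Mtnr1a* differed by -0.0384 to 0.0501 CPM between groups, with exact permutation p-values of 0.457 to 0.771.

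The spread between mice of a group is given as a description, since *Prl* and *Gh* were selected on levels that vary. The SD within groups of log2 CPM (12 degrees of freedom) was 2.24 for *Cga*, which ranked 18 of 15808 genes, 1.23 for *Gh* (rank 85) and 1.15 for *Prl*. It was 0.0564 for *Eya3* (rank 11339), and the median over all genes was 0.0807. Low counts raise this SD, and among genes within 0.5 of its mean log2 CPM *Gh* ranked 2 of 1294, *Cga* 4 of 916 and *Prl* 21 of 571. The median SD of those neighbours was 0.197 for *Gh*, 0.325 for *Cga* and 0.363 for *Prl*. A gene with a low mean passes the filter through its high libraries. The ranks of *Cga* (over 1 CPM in 7 libraries) and *Prl* (in 5) thus partly restate how they were admitted. *Gh* was over 1 CPM in 12 libraries, but it was selected on its levels, as was *Prl*. *Eya3*, which was over the filter in every library, had an SD below the median.

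**Figure D4:**
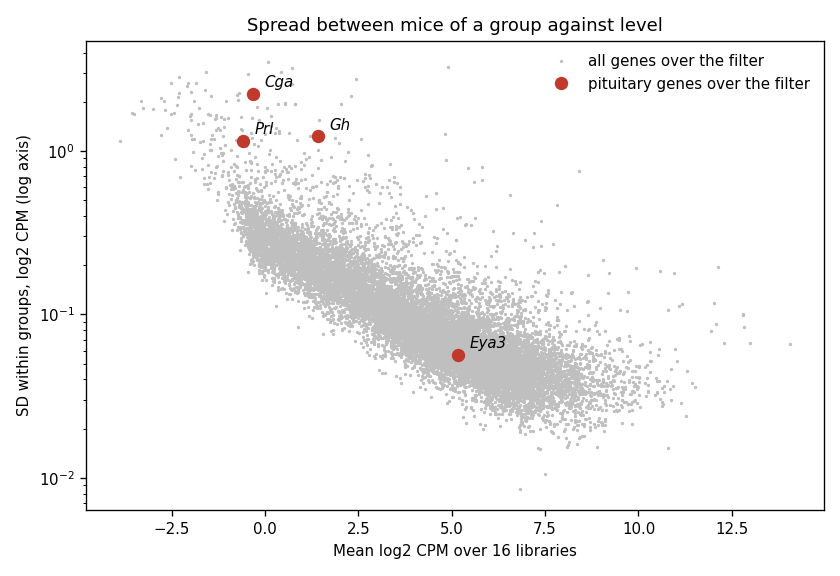
SD within groups of log2 CPM (vertical axis, logarithmic) against mean log2 CPM (horizontal axis) for the 15808 genes over the filter (grey dots) and 4 pituitary genes (red). *Cga* (SD 2.24), *Gh* (1.23) and *Prl* (1.15) lie above nearly all genes of their level, and *Eya3* (0.0564) lies among them.

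The genes most like each of these were sought by Pearson's r over the 16 libraries, each centred on its group mean. These r are descriptions over libraries that share depth and dissection, and were picked as the highest of all genes. For *Cga* they were *Epcam*, an epithelial adhesion protein (r = 0.964), the carboxylesterase *Ces1d* (0.962), the cytochrome P450 *Cyp2f2* (0.951), *Chga*, the secretory granule protein chromogranin A (0.917), and the apolipoprotein *Apoc3* (0.906). All 5 were highest in the 7 libraries high in *Cga*. *Epcam* was at 0.845 to 1.58 CPM in those and 0.0555 to 0.308 CPM in the other 9, *Ces1d* at 4.84 to 7.79 and 0.921 to 1.74 CPM, and *Chga*, which hypothalamic neurons also express, at 149 to 167 and 130.0 to 142 CPM. Since *Cga* fell into high and low libraries, each r rests on that split.

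*Prl* was most like *Gh* (r = 0.874), followed by *Plekhb1* (0.861), *2610318N02Rik* (0.848), *A730020E08Rik* (0.799) and *Anln* (0.798). *Gh* was most like *Krcc1* (0.875) and *Prl* (0.874), followed by *Rnf180* (0.861), *Folh1* (0.847) and *Hnrnpa0* (0.801). *Krcc1*, *Rnf180* and *Hnrnpa0* had 6870.86 to 38461 counts in all, against 2995 for *Gh*. *Eya3* was most like *B830017H08Rik* (r = 0.842) and *C630043F03Rik* (0.812), and then *AL731706.1* (0.81), *Ephb3* (0.794) and *Ccdc34* (0.793).

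Of 15 further genes of pars distalis cells, such as hormones, receptors for releasing factors and lineage factors, 9 were tested. By edgeR 1 was called, *Fshb* in WT mice, where 7.52% of all genes tested were called higher; 1 of 9 is close to that share. There it was higher at ZT13 by 4.92 on the log2 scale (SE 1.28, edgeR adjusted p = 0.0165). It had 28, 18, 3 and 56 counts in WT mice at ZT13 and 0, 2, 1 and 0 at ZT1, and the times did not overlap. *Fshb* was over 1 CPM only in WT ZT13 replicate 4 (1.56 CPM) and ASIC1a-/- ZT1 replicate 4 (1.14 CPM). Within this comparison it thus passed the filter through the group where it was high. It was highest in the same 7 libraries as *Cga*, so its call is not separate evidence. The median log2 fold change of the 9 was 0.07 in that comparison and -0.04 to 0.07 in the other comparisons of 2 groups, and that of all genes tested was within 0.01 of 0. *Fshb* had a log2 fold change of 4.44 between ASIC1a-/- and WT mice at ZT1 (SE 1.34, edgeR adjusted p = 0.68). *Ghrhr*, the receptor that marks somatotropes, had at most 2 counts in any library.

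Of 8 genes around the pars tuberalis and the tanycytes it signals to, 5 were tested. At ZT13, 1 of the 5 was called higher in ASIC1a-/- mice, against 6.72% of all genes tested, and 2 of the 5 in WT mice, against 7.52%. *Dio2* rose at ZT13 relative to ZT1 in both genotypes, by 0.59 in ASIC1a-/- mice (SE 0.0934, edgeR adjusted p = 0.000563) and by 0.56 in WT mice (SE 0.0947, adjusted p = 0.000929). Its level was 19.6 ± 1.84 CPM at ZT13 and 13.0 ± 2.13 CPM at ZT1 in ASIC1a-/- mice, and 18.1 ± 1.58 CPM at ZT13 and 12.3 ± 0.429 CPM at ZT1 in WT mice (SD, n = 4). The *Cga* levels at the 2 times overlapped in ASIC1a-/- mice and did not in WT mice, where the gap was a few reads. A link between *Cga* and *Dio2* was not tested. *Tef*, a PAR bZIP factor of the clock output, rose in WT mice by 0.09 (SE 0.0295, edgeR adjusted p = 0.0442; 0.0512 without the 2 libraries high in meningeal markers). *Tshr*, the thyrotropin receptor, had a log2 fold change of 0.32 in each genotype (edgeR adjusted p = 0.16 in ASIC1a-/- and 0.144 in WT mice).

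Among 9 factors by which the hypothalamus controls the pituitary, 8 were tested. Of all genes tested, 4.62% were lower at ZT13 in ASIC1a-/- mice and 5.76% in WT mice, and 6.72% were higher in ASIC1a-/- mice and 7.52% in WT mice. In WT mice *Gnrh1*, which drives gonadotropes, was higher at ZT13 by 0.74 on the log2 scale (SE 0.218, edgeR adjusted p = 0.032) and *Crh*, which drives corticotropes, was lower, with -0.63 (SE 0.18, adjusted p = 0.0261). In ASIC1a-/- mice *Th* and *Ddc*, the enzymes that make dopamine, the inhibitor of prolactin release, were lower at ZT13, with -0.85 (SE 0.231, edgeR adjusted p = 0.0244) and -0.53 (SE 0.136, adjusted p = 0.0172). There 3 of 4 midbrain dopamine neuron markers, *Chrna6*, *Slc10a4* and *En1*, were also called lower at ZT13. The other, *Slc6a3*, had a log2 fold change of -2.01 (SE 0.713, edgeR adjusted p = 0.0788). The summed level of all 4 markers in ASIC1a-/- mice was 24.0 to 65.1 CPM at ZT13 and 87.3 to 231 CPM at ZT1. The part of these markers in the change of *Th* and *Ddc*, and of *Drd2* below, was not tested. Of 8 receptor and feedback genes for prolactin and growth hormone, the prolactin receptor gene *Prlr* was higher at ZT13 in ASIC1a-/- mice by 0.11 (SE 0.033, edgeR adjusted p = 0.0397) and in WT mice by 0.21 (SE 0.0331, adjusted p = 0.000457). *Cish* (0.40, SE 0.0951, edgeR adjusted p = 0.0097) and *Socs2* (0.34, SE 0.0972, adjusted p = 0.0284), feedback inhibitors that STAT5 induces, were higher at ZT13 in WT mice, and *Drd2*, the dopamine receptor of lactotropes and of many neurons, was lower at ZT13 in ASIC1a-/- mice (-0.41, SE 0.0962, edgeR adjusted p = 0.0101). Without the 2 libraries high in meningeal markers the calls in ASIC1a-/- mice were lost for *Th* (-0.65, edgeR adjusted p = 0.143), *Ddc* (-0.36, adjusted p = 0.136), *Drd2* (-0.31, adjusted p = 0.0873) and *Prlr* (0.10, adjusted p = 0.127). *Dio2* was still called there (0.64, edgeR adjusted p = 0.00043), and *Cish* passed (0.35, adjusted p = 0.0427; 0.24 and 0.114 with all libraries). No gene of these lists was called between genotypes at either time by edgeR.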

How the data were processed

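Gene values of 16 hypothalamus libraries, 4 per group, were analysed. According to the submitters' processing notes, HTSeq 0.9.1, RSEM 1.2.31, STAR 2.5.3a and cutadapt 1.8 were used, and the builds listed are mm9 and GRCm38. The strand setting is not given in the sources used here. The deposited expected counts were estimated by the authors with RSEM, which divides reads that fit several genes, and 4.851% of them are not whole numbers. The deposited TPM values, made by the authors with RSEM, are scaled by effective length and library total and were used as they stand.

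After rounding of the expected counts, genes that exceeded 1 CPM in any library (15808 genes) entered edgeR 4.0.16 (R 4.3.3) with TMM scaling, the quasi-likelihood F test and 1 mean per group. Benjamini-Hochberg adjustment ran across all of them. CPM are TMM-normalized, and log2 CPM used a prior count of 2. Counts in the text are expected counts per library. The genes under the filter were compared by exact permutation of mean CPM, with p adjusted over 20 tests. Library totals were alike, so precision for these genes is set by low counts and by the 4 mice per group; intervals and floors cover counting error only. No library looked like a copy of another of its group (chi-square per degree of freedom 3.18 to 11.3 over 24 pairs).

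Symbols and positions come from GENCODE release M21, which names 55141 of the 55401 identifiers, and promoters from RefSeq on GRCm38.p6. The genes named were the 9 members, *Asic1*, the 5 genes most like each member, and in each of 14 gene lists up to 4 that passed, otherwise up to 2 with the smallest p; some of these are not reported here. Members, lists and the rule were chosen with earlier results of these data known. Alternatives were other size factors, other filters on low counts, DESeq2 1.42.0, limma 3.58.1 on log2(TPM + 1) and log2(TPM + 0.1), the replicate number as a block, and omission of each library or of the 2 high in meningeal markers. Leaving out single libraries for the genes under the filter and for the *Pitx1* bound, and the 2 meningeal-high libraries for the gene lists, was added after the data were seen. The test code was checked on simulated data. Figures were drawn with matplotlib 3.10.9.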

Additional observations from a re-analysis of the deposited data

Results flagged for a closer look

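The CPM of each gene was checked for a library far from its group, by the gap to the nearest other library relative to the range of the 4. Of 28 sets of 4 libraries, 2 passed Dixon's critical value, and chance alone would pick out about 1 in 20. Both sets were of *Prl* or *Gh*, which were selected on their levels, so this is a description and no conclusion is drawn from it. *Prl* was at 9.0 CPM in WT ZT13 replicate 1, against 1.33 to 1.65 CPM in the other 3 libraries of that group. *Gh* was at 11.5 CPM in ASIC1a-/- ZT1 replicate 2, against 2.96 to 3.31 CPM in the other 3 libraries of its group. *Gh* was also picked out because all 4 ASIC1a-/- libraries lay above all 4 WT libraries at ZT1 and below them at ZT13. The fitted log2 difference between the 2 genotype effects was -5.09 (SE 0.996), and it was not tested, since *Gh* led to the choice of these genes.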

How the results depend on the processing

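Of the 7 genes counted (all but *Prl* and *Gh*, which carry no test), the main edgeR fit tested *Cga* and *Eya3* alone. Of the 7, 0 were called between genotypes or for the interaction under the alternatives tried. Over all genes, omission of the 2 libraries high in meningeal markers left 683 called higher and 416 lower at ZT13 in ASIC1a-/- mice, against 1062 and 730 with all libraries. In WT mice the number of the 7 called between times was 1 (*Cga*). It became 3 with no filter on low counts and 3 with edgeR's own filter (*Cga*, *Tshb* and *Pitx1* in both), and 0 in limma on log2(TPM + 1) and on log2(TPM + 0.1). With no filter, 1029 of all 30876 genes were called higher and 673 lower. With edgeR's own filter, 1177 of all 17904 genes were called higher and 861 lower. In ASIC1a-/- mice the number of the 7 called was 1 (*Eya3*), and 0 in both limma fits and without the 2 libraries high in meningeal markers. Without single libraries these counts were 0 to 0, 0 to 0, 1 to 1, 1 to 1 and 0 to 0 in the 5 comparisons. The direction of *Eya3* in WT mice turned in limma (-0.02 on both scales), and its genotype effect at ZT13 of 0.03 was 0.00 to 0.06 without single libraries. The *Cga* change with time in ASIC1a-/- mice, -0.08, was -0.82 to 0.64 without single libraries. Differences in CPM of genes under the filter turned in TPM for *Tshb* between genotypes at ZT13 (0.08 TPM) and *Mtnr1a* between genotypes at ZT1 (0.127 TPM) and between times in ASIC1a-/- mice (-0.102 TPM). Without single libraries they were -0.152 to 0.0939 CPM for *Tshb* between genotypes at ZT13, -0.0721 to 0.173 CPM for *Pitx1* between times in ASIC1a-/- mice, -0.0613 to 0.0167 CPM for *Mtnr1a* between genotypes at ZT1, and -0.0208 to 0.0589 CPM in ASIC1a-/- and -0.000229 to 0.0778 CPM in WT mice for *Mtnr1a* between times. *Prl* between genotypes at ZT13 (-3.84) was -5.08 to -2.70 without single libraries and -2.29 in limma on log2(TPM + 1). The causes of these changes were not tested. Samples share only a replicate number: of 24 same-number pairs, 4 had a correlation of deviations over 0.1 (-0.32 to 0.22). With the replicate number as a block, *Cga* in WT mice between times was at 6.08 (edgeR adjusted p = 0.0319) and *Eya3* in ASIC1a-/- mice at 0.18 (0.0159), and the counts of called genes stayed at 0, 0, 1, 1 and 0. Counts of a few reads limit *Lhb*, *Pou1f1*, *Pitx1* and *Tshb*.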
